A study of Mus musculus with 12 samples.

Results

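Naive pluripotency transcription factors besides Nanog were followed in mouse embryonic stem cells through 4 treatment groups. The 9 genes were Esrrb, Nr5a2, Nr0b1, Tfcp2l1, Tbx3, Gbx2, Zfp42, Prdm14 and Dppa3. They were chosen as the non-control probes whose accession maps to these genes, which gave 11 of the 56605 probes on the array. Tbx3 and Dppa3 had 2 probes each and the other genes 1. All 11 probes passed the filter on dim probes, so that all 9 genes were among the 26841 genes tested.

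Embryonic stem cells are cultured from the early embryo and can form all of its tissues. The study measured total RNA on 12 one-colour arrays, with 3 biological replicates in each group. All cells grew with leukaemia inhibitory factor (LIF) and 250 nM PD173074, which inhibits receptors of fibroblast growth factors (FGF), so the untreated group carried that inhibitor too. Untreated cells were taken at 0 h. A second group received 250 nM 4OHT for 6 h. The MG132 group received 1 µM of this proteasome inhibitor for 30 min and then for a further 6 h. In the last group MG132 was given for 30 min, and MG132 and 4OHT were then present together for 6 h. 4OHT (4-hydroxytamoxifen) binds the oestrogen receptor and is a common means of activating engineered fusions with it. Neither such a protein nor a cell line or vehicle is named in the labels. No untreated array was titled as 6 h, so time and compound cannot be told apart wherever untreated cells were the control.

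In the naive state, which LIF and the block of FGF signalling to the kinase ERK favour, some of these factors bind many of the same enhancers and maintain each other's expression. ERK activity is known to move cells out of this state towards a formative and then a primed epiblast state. Several of the factors are also known as short-lived proteins, and arrays measure only their RNA.

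Levels are log2 processed intensities relative to the 75th percentile of the same array, in the order of replicates 1, 2 and 3. A level compares arrays for one probe and does not rank one gene above another. Changes are log2 differences between group means ± standard error (SE), with n = 3 arrays per group. A gene was called when the adjusted p of limma over all 26841 genes was below 0.05. A p-value here reflects only how these samples scatter, and precision is limited by how many arrays there were. With 3 arrays a side the smallest exact p is 0.1, which is why single genes were left to the model. In such bulk RNA, fewer cells of a type and less RNA per cell cannot be told apart.

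Before the results, 3 features of the arrays have to be given. The share of probes well above background ran from 49.5% to 63.2% over the arrays, and the embryonic stem cell markers Pou5f1, Sox2, Nanog and Zfp42 did so on 12 of 12 arrays. Slide 1 held the untreated arrays, the 4OHT arrays and MG132 replicates 1 and 2, and the arrays with both compounds shared slide 2 with MG132 replicate 3. A slide term therefore rests on MG132 replicate 3 against MG132 replicates 1 and 2. The replicate 3 arrays stood apart from their partners in several of the 9 genes, as described after the comparisons. Median centring shifted the median change of all genes by more than 0.1 in several comparisons. With both compounds against untreated cells it went from 0.19 to -0.23.

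The sequence just upstream of a gene shows where factors could bind, and it was available in RefSeq promoter windows for 6 of the 9 genes. Prdm14, Tbx3 and Dppa3 were not matched. Printed below are the windows of Gbx2 and Nr0b1, which moved in opposite ways between untreated cells and cells with both compounds, and those of Esrrb and Zfp42, which held a STAT site or an octamer. Each is the 250 bases before the annotated start in GRCm38.p6, 5′ to 3′ on the gene's strand, with motif matches in capitals.
Gbx2: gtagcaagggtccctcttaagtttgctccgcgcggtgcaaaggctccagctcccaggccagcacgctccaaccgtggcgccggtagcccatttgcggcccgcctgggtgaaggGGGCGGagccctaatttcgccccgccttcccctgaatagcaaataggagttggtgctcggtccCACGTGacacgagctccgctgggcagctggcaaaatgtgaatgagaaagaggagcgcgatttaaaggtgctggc
Nr0b1: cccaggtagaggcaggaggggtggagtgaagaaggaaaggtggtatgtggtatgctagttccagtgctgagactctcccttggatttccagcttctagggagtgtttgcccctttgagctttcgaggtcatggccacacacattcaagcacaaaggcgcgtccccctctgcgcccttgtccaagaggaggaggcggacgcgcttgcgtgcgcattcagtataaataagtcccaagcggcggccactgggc
Esrrb: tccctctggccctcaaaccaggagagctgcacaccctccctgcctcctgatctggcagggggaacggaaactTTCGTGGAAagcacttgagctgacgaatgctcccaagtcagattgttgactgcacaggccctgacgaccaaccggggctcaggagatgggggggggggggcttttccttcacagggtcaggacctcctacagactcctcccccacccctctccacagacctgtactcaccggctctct
Zfp42: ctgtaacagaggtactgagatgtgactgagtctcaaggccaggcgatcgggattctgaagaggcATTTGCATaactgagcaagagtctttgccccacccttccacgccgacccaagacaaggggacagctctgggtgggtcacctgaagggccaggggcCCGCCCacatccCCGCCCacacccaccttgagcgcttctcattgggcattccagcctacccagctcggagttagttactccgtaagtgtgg
The Gbx2 window lies at chr1:89931177-89931426 on the minus strand, and its capitals mark a GC box 137 bases and an E-box 74 bases upstream of the start. The Nr0b1 window lies at chrX:86191525-86191774 on the plus strand and held no match. The first of 2 Esrrb windows lies at chr12:86360867-86361116 on the plus strand, with a STAT site 178 bases upstream. The Zfp42 window lies at chr8:43307010-43307259 on the minus strand, with an octamer 186 bases upstream and GC boxes at 91 and 79 bases, all of them on the opposite strand.

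A total of 9 motifs was searched on both strands: AAGGTCA, the half-site bound by Esrrb and Nr5a2, TTCNNNGAA for STAT, CCGGAA for ETS factors, GCGNGGGCG for Egr factors, TGACTCA for AP-1, GGGCGG for the GC box, ATGCAAAT for the octamer bound by Oct4, CTTTGAT for TCF factors and CACGTG for the E-box. None of these overlapped another among the matches printed. Across all 32851 windows of this length, 32.7% held a GC box, 12.03% an ETS core, 7.02% a STAT site and 6.02% an E-box. The Egr site was held by 4.70%, the AP-1 site by 4.46%, the nuclear receptor half-site by 4.08%, the TCF site by 3.21% and the octamer by 1.60%. The windows of Tfcp2l1 and Nr5a2, like the second Esrrb window, held none of the 9. A match is a description of these letters and not a bound site, and a missing match says only that the letters are not in this window.

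The first comparison, of 4OHT with untreated cells, addressed what changed in 6 h with an active proteasome. Gbx2 and Nr0b1 rose, and Esrrb, Tfcp2l1, Tbx3 and Prdm14 fell. That is 6 of 9 genes called, 2 higher and 4 lower, where 28.6% of all genes were called, 13.9% higher and 14.7% lower. The split over all genes depended on the scaling, with 3731 higher and 3935 lower as reported, 7071 and 3257 with normexp background correction, 2970 and 4849 with quantile normalization and 2263 and 5420 with median centring. The median change of the 9 genes was -1.01, beside 0.026 over all genes tested. The 2 groups did not overlap in 6 of the 9, and in 40.9% of all genes measured on every array of both groups.

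In the pair of groups without MG132, Gbx2, a homeobox factor downstream of LIF and STAT3 signalling, stood at 0.34, 0.32 and 0.56 in untreated cells and at 2.96, 2.86 and 3.10 with 4OHT. All 3 4OHT arrays were high and lay far from the untreated arrays. Gbx2 rose 5.93-fold (2.57 ± 0.13, adjusted p = 9.4e-07). Nr0b1, which encodes the orphan nuclear receptor DAX1, a partner and repressor of other nuclear receptors, stood at 4.34, 4.31 and 4.23 in untreated cells and at 5.12, 5.08 and 4.96 with 4OHT. The groups did not overlap, and Nr0b1 rose by 0.76 ± 0.10 (adjusted p = 0.00039).

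Esrrb, an orphan nuclear receptor that sustains self-renewal, stood at 6.53, 6.48 and 6.57 in untreated cells and at 5.27, 5.41 and 5.87 with 4OHT. Its 4OHT arrays were all low, with replicate 3 the least so, and Esrrb changed by -1.01 ± 0.13 (adjusted p = 0.00036). Tfcp2l1, a grainyhead-family factor downstream of STAT3, stood at 4.52, 4.54 and 5.26 in untreated cells and at 2.30, 2.25 and 3.93 with 4OHT. The groups did not overlap, but replicate 3 was high in both. Tfcp2l1 changed by -1.94 ± 0.47 (adjusted p = 0.011), the widest error of the 9 genes. Without the replicate 3 arrays of all groups, an alternative chosen after the data were seen, the change was -2.25 (adjusted p = 4.3e-05).

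Tbx3, a T-box factor that acts with PI3 kinase signalling downstream of LIF, was measured by 2 probes. Its brighter probe stood at 4.82, 4.81 and 4.85 in untreated cells and at 2.31, 2.64 and 3.74 with 4OHT. The other probe stood at 2.89, 2.78 and 2.62 and, with 4OHT, at -0.33, 0.36 and 1.50. On both probes the 4OHT arrays were low and apart from untreated ones, with replicate 3 the highest of them. The brighter probe changed by -1.93 ± 0.29 (adjusted p = 0.00075) and the other by -2.25 ± 0.38 (adjusted p = 0.0014, over all probes kept). Prdm14, a PR-domain factor that restrains FGF signalling and DNA methylation, stood at 0.48, 0.47 and 0.34 in untreated cells and at -0.44, -0.74 and -0.70 with 4OHT. The groups did not overlap, and Prdm14 changed by -1.06 ± 0.11 (adjusted p = 9.5e-05).

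Zfp42, which encodes the zinc finger marker protein REX1, stood at 6.55, 6.55 and 6.39 in untreated cells and at 6.74, 6.47 and 6.31 with 4OHT. These values overlapped. Its difference was 0.0056 ± 0.15 (adjusted p = 0.98), with a 95% confidence interval from -0.32 to 0.33. Nr5a2, the nuclear receptor LRH-1, stood at 3.59, 3.59 and 4.07 in untreated cells and at 3.70, 4.21 and 4.74 with 4OHT. The groups overlapped, and the difference of 0.47 ± 0.24 was not called (adjusted p = 0.18, interval from -0.067 to 1.00). Without 4OHT replicate 1 it was 0.72 (adjusted p = 0.027).

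Dppa3, the gene of the maternal factor STELLA, which protects DNA methylation marks in the early embryo, stood at 1.01, 1.14 and 0.096 in untreated cells on its brighter probe. With 4OHT the values were -0.37, 0.25 and -0.78. Untreated replicate 3 lay below 4OHT replicate 2, so the groups overlapped. The difference of -1.05 ± 0.40 was not called (adjusted p = 0.075). A call was made without untreated replicate 3 (-1.38, adjusted p = 0.035), without 4OHT replicate 2 (-1.33, adjusted p = 0.047) and without replicate 3 of the group with both compounds (adjusted p = 0.048). It was also made without the replicate 3 arrays of all groups (-1.14, adjusted p = 0.0096), with normexp (-0.93, adjusted p = 0.025) and with median centring (-1.23, adjusted p = 0.047). The other Dppa3 probe gave -1.02 ± 0.41 (adjusted p = 0.086, over all probes kept).

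**Figure D1:**
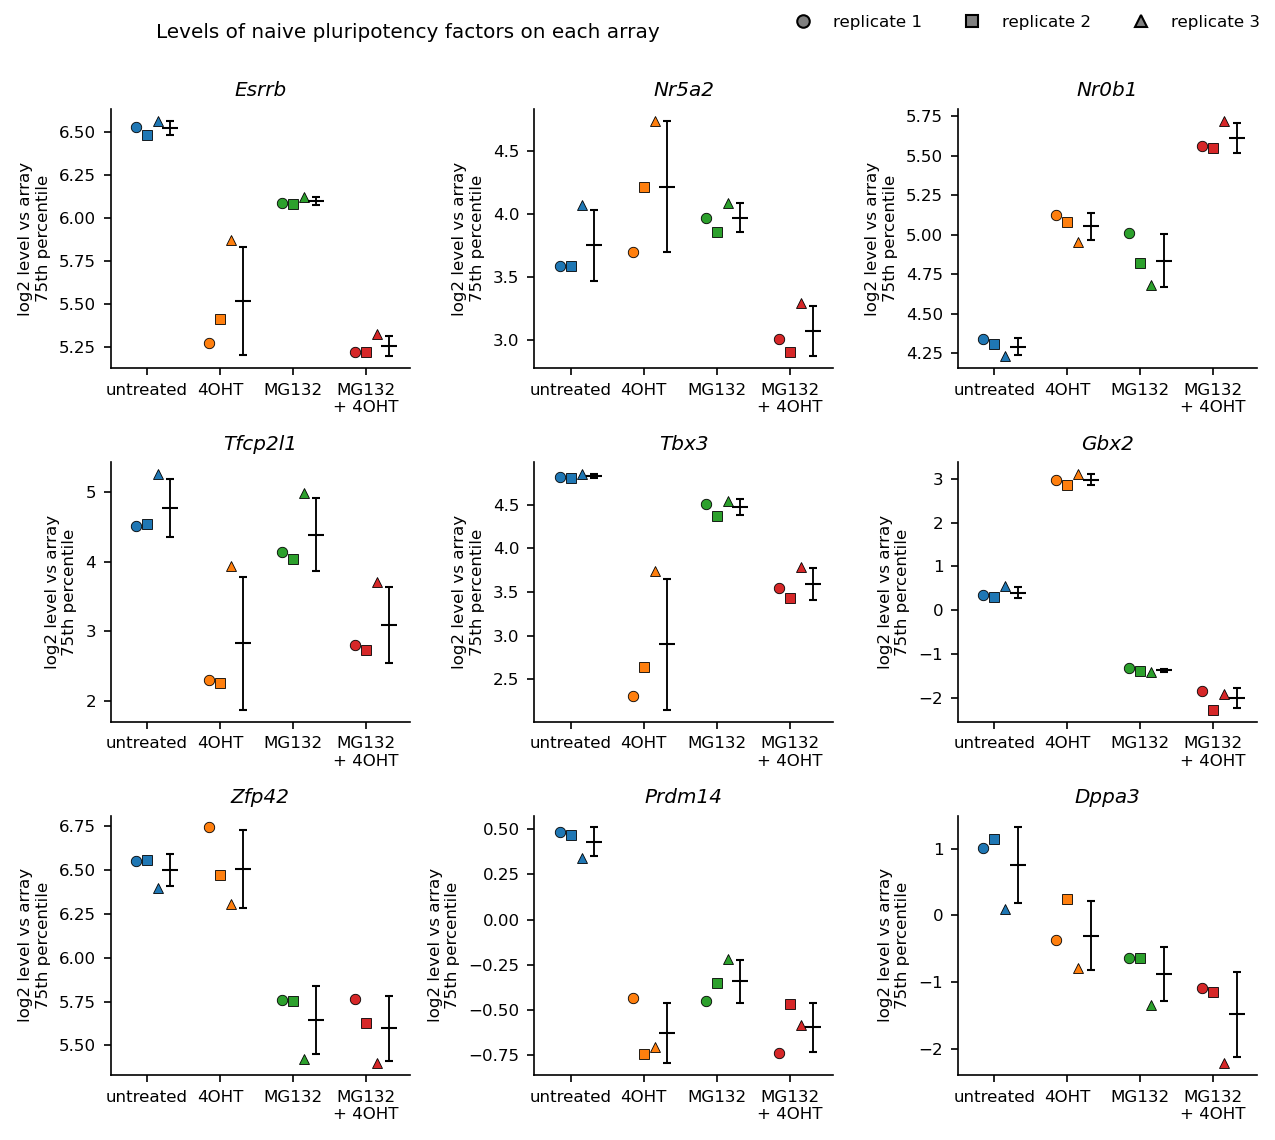
Log2 level relative to the array's 75th percentile for the brighter or only probe of each gene, by treatment group. Points are single arrays, with a separate marker for each replicate, and the bar beside them is the mean ± SD (n = 3); each panel has its own axis, and Gbx2 with 4OHT, at 2.86 to 3.10, lies above all other groups.

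The second comparison, of MG132 with untreated cells, addressed what proteasome inhibition changed without 4OHT. Gbx2, Dppa3, Zfp42, Prdm14 and Esrrb fell and Nr0b1 rose, so that 6 of 9 genes were called, 1 higher and 5 lower. Among all genes 43.1% were called, 24.1% higher and 19.0% lower. With median centring the split over all genes turned from 6473 higher and 5093 lower to 3497 and 9555. The median of the 9 genes was -0.43, beside 0.071 over all genes. The groups did not overlap in 7 of the 9 and in 59.5% of all genes.

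With MG132 alone Gbx2 stood at -1.32, -1.37 and -1.39. All 3 arrays were below the untreated range, and 29.4% of the untreated level remained (-1.77 ± 0.13, adjusted p = 5.2e-06). Dppa3 stood at -0.64, -0.64 and -1.34 and was also apart from untreated cells (-1.62 ± 0.40, adjusted p = 0.0078). Its other probe gave -1.62 ± 0.41 (adjusted p = 0.0089, over all probes kept).

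Zfp42 stood at 5.76, 5.75 and 5.42 with MG132, all below its untreated arrays, and changed by -0.86 ± 0.15 (adjusted p = 0.0010). Prdm14 stood at -0.45, -0.35 and -0.22, again with no overlap, and changed by -0.77 ± 0.11 (adjusted p = 0.00044). Esrrb stood at 6.09, 6.08 and 6.12, a narrow group below the untreated one (-0.43 ± 0.13, adjusted p = 0.027). The Esrrb call was lost without any 1 of the untreated or MG132 arrays (adjusted p from 0.053 to 0.074), with slide as a fixed block (0.053) and within slide 1 (0.10). The size depended on the scaling, with -0.33 under quantile normalization (adjusted p = 0.058), -0.65 with normexp (adjusted p = 0.012) and -0.78 with median centring (adjusted p = 0.0029). With no filter on dim probes the adjusted p was 0.060.

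Nr0b1 stood at 5.01, 4.82 and 4.68 with MG132, above all untreated arrays, and rose by 0.54 ± 0.10 (adjusted p = 0.0019). This rise depended on the scaling: with median centring it was 0.19 (adjusted p = 0.23). The other 3 genes were not called. Tfcp2l1 stood at 4.14, 4.04 and 4.99 (-0.38 ± 0.47, adjusted p = 0.56), overlapping the untreated arrays. Without the replicate 3 arrays of all groups, Tfcp2l1 differed by -0.44 (adjusted p = 0.0090). Tbx3 stood at 4.51, 4.37 and 4.54 and did not overlap with untreated cells, but was not called (-0.35 ± 0.29, adjusted p = 0.37). With 4OHT replicate 3, an array of neither group, left out of the fit, the adjusted p was 0.039. Nr5a2 stood at 3.97, 3.86 and 4.09, within reach of the untreated arrays (0.22 ± 0.24, adjusted p = 0.50).

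The third comparison took the cells with both compounds against those with MG132 alone, and addressed what 4OHT changed with the proteasome inhibited. Nr0b1 rose, and Esrrb, Nr5a2, Tbx3 and Gbx2 fell, so that 5 of 9 genes were called, 1 higher and 4 lower. Of all genes 26.5% were called, 13.9% higher and 12.6% lower. Median centring turned the split over all genes from 3723 higher and 3385 lower to 2440 and 3510. The median of the 9 genes was -0.64, beside 0.074 over all genes. The groups did not overlap in 7 of the 9 and in 50.2% of all genes.

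With both compounds Esrrb stood at 5.22, 5.22 and 5.32. These arrays were far below those with MG132 alone, and the change was -0.84 ± 0.13 (adjusted p = 0.0017). Nr0b1 stood at 5.56, 5.55 and 5.72 and rose by 0.77 ± 0.10 (adjusted p = 0.00063), with no overlap. Both calls held with slide as a fixed block, while Esrrb was not called with slide and replicate blocks together (-0.71, adjusted p = 0.057).

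Nr5a2 stood at 3.01, 2.91 and 3.30, below all arrays of each other group, and changed by -0.90 ± 0.24 (adjusted p = 0.021). The call was lost without MG132 replicate 1 (adjusted p = 0.058) or 3 (0.054), or without replicate 1 (0.065) or 2 (0.075) of the group with both compounds. Gbx2 stood at -1.83, -2.26 and -1.90, the lowest values of the gene on any array, and changed by -0.64 ± 0.13 (adjusted p = 0.0051). Tbx3 stood at 3.55, 3.44 and 3.79 and changed by -0.88 ± 0.29 (adjusted p = 0.048), with no overlap. Its call lay at the threshold. It was lost without any untreated array (0.065 to 0.069), any MG132 array (0.092 to 0.12), any array with both compounds (0.069 to 0.14) and without 4OHT replicate 2 (0.053). The other probe of Tbx3 gave -0.68 ± 0.38 (adjusted p = 0.21, over all probes kept).

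With slide as a fixed block Nr5a2 changed by -1.02 (adjusted p = 0.10), Tbx3 by -0.95 (adjusted p = 0.21) and Gbx2 by -0.61 (adjusted p = 0.071). Within slide 2 the changes of these genes were the same, with adjusted p of 0.060, 0.060 and 0.16. Only 1 MG132 array, replicate 3, lay on that slide. Sizes therefore moved little while none of the 3 calls held.

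Tfcp2l1 stood at 2.81, 2.74 and 3.72 with both compounds, below all arrays with MG132 alone. The difference of -1.30 ± 0.47 was not called (adjusted p = 0.068), but was without 4OHT replicate 3 (adjusted p = 0.019) and without the replicate 3 arrays of all groups (-1.31, adjusted p = 0.00056). Prdm14 stood at -0.74, -0.47 and -0.58 (-0.25 ± 0.11, adjusted p = 0.13), just apart from MG132 alone. Dppa3 stood at -1.09, -1.14 and -2.21 (-0.61 ± 0.40, adjusted p = 0.28), and Zfp42 at 5.76, 5.63 and 5.40 (-0.047 ± 0.15, adjusted p = 0.84). Both overlapped with the MG132 arrays.

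The question whether MG132 altered the response to 4OHT was put as the 4OHT change under MG132 minus the 4OHT change without it. This difference of responses uses all 4 groups, and the 2 responses share no arrays. The response without MG132 has untreated cells at 0 h as its control, while the response under MG132 compares cells of the same time. Time and compound therefore cannot be told apart in this difference either. It was called in 3 of 9 genes, 1 higher and 2 lower, where 6.56% of all genes were called, 2.94% higher and 3.61% lower. Median centring turned the split over all genes from 790 higher and 970 lower to 881 and 591. The median over the 9 genes was 0.16, beside 0.046 over all genes.

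Gbx2 differed by -3.21 ± 0.18 (adjusted p = 3.8e-05), since it rose 5.93-fold with 4OHT alone and fell by 0.64 on the log2 scale with 4OHT under MG132. With slide as a fixed block its difference was -3.18 (adjusted p = 0.00072). No alternative that was tried ended this call. The upstream window of Gbx2 printed above is the one with both a GC box and an E-box. A link between these matches and its response was not tested.

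Nr5a2 differed by -1.36 ± 0.34 (adjusted p = 0.041), from 0.47 with 4OHT alone, which was not called, to -0.90 under MG132. Its call was lost without 9 of the 12 arrays in turn: untreated replicate 1 (adjusted p = 0.10) or 2 (0.11), 4OHT replicate 2 (0.072), MG132 replicate 1 (0.087), 2 (0.077) or 3 (0.071), and replicate 1 (0.098), 2 (0.11) or 3 (0.051) of the group with both compounds. It was also lost with slide as a fixed block (-1.48, adjusted p = 0.12) and with median centring (-1.26, adjusted p = 0.084).

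Prdm14 differed by 0.80 ± 0.16 (adjusted p = 0.017), from -1.06 with 4OHT alone to -0.25 under MG132. The call was lost without untreated replicate 1 (0.78, adjusted p = 0.050) or 2 (0.78, adjusted p = 0.052) and without replicate 2 of the group with both compounds (0.74, adjusted p = 0.053). With slide as a fixed block the value was 0.68 (adjusted p = 0.11). Prdm14 was already lower with MG132 alone than in untreated cells, by 0.77 on the log2 scale.

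For the other 6 genes no difference of responses was called. The interval ran from -0.31 to 0.34 for Nr0b1, which rose by 0.76 and 0.77 in the 2 settings, and from -0.51 to 0.41 for Zfp42, which was called in neither. Esrrb differed by 0.16 ± 0.19 (adjusted p = 0.68) and Dppa3 by 0.44 ± 0.56 (adjusted p = 0.71). Tbx3 differed by 1.04 ± 0.41 (adjusted p = 0.18) and was called without 4OHT replicate 3 (1.47, adjusted p = 0.0016). Its other probe gave 1.57 ± 0.53 (adjusted p = 0.12, over all probes kept). Tfcp2l1 differed by 0.64 ± 0.67 (adjusted p = 0.64). Without the replicate 3 arrays of all groups the difference was 0.94 for Tfcp2l1 (adjusted p = 0.0095) and 1.39 for Tbx3 (adjusted p = 0.013).

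**Figure D2:**
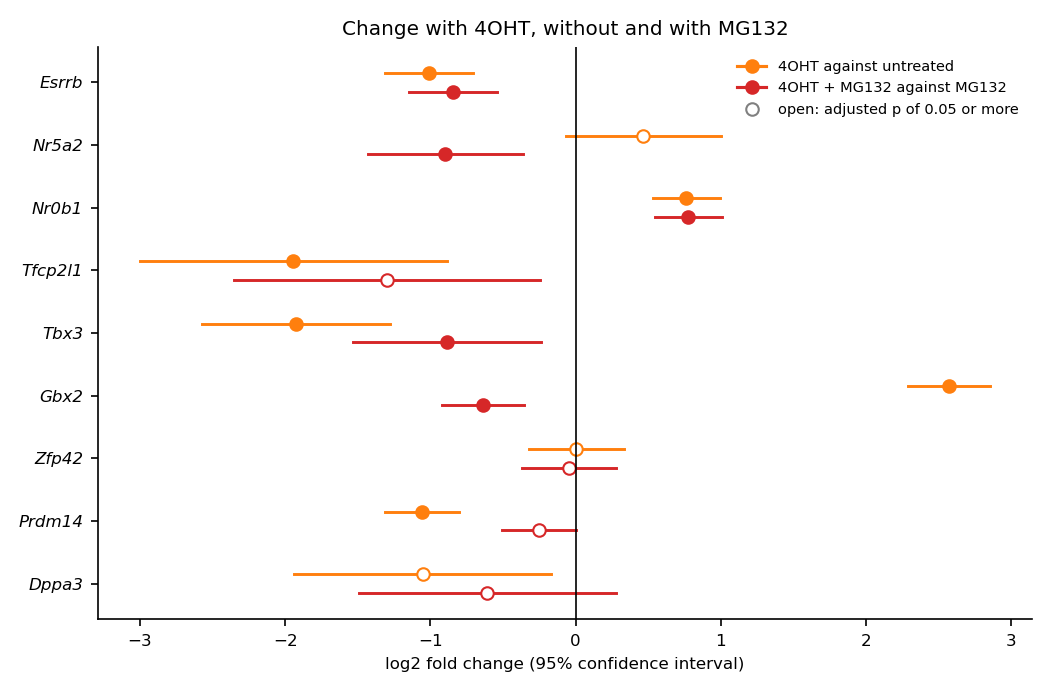
Log2 change with 4OHT, without MG132 (4OHT against untreated) and with it (both compounds against MG132), for each gene; points are estimates, bars 95% confidence intervals of limma, and open points were not called. Gbx2 lies at 2.57 without MG132 and at -0.64 with it, while the Nr0b1 estimates of 0.76 and 0.77 nearly coincide.

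The remaining comparisons placed the cells with both compounds against 4OHT alone and against untreated cells. Against 4OHT alone, 5 of 9 genes were called, 1 higher and 4 lower, where 50.2% of all genes were called, 29.3% higher and 20.9% lower. Median centring turned the split over all genes from 7877 higher and 5603 lower to 4994 and 7961. The median of the 9 genes was -0.26, beside 0.13 over all genes. The groups did not overlap in 5 of the 9, a share near the 57.5% of all genes.

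Gbx2 was 31.4-fold lower with both compounds than with 4OHT alone (-4.97 ± 0.13, adjusted p = 1.6e-08), the widest gap between any 2 groups among the 9 genes. Nr5a2 changed by -1.15 ± 0.24 (adjusted p = 0.0028), Dppa3 by -1.18 ± 0.40 (adjusted p = 0.031) and Zfp42 by -0.91 ± 0.15 (adjusted p = 0.00057). The arrays of these genes did not overlap. The other Dppa3 probe was not called (-1.06 ± 0.41, adjusted p = 0.051, over all probes kept). Nr0b1 rose by 0.56 ± 0.10 (adjusted p = 0.0014), but with median centring by 0.31, which was not called (adjusted p = 0.065).

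Dppa3 was not called without 4OHT replicate 1 (-1.22, adjusted p = 0.053) or 2 (-0.90, adjusted p = 0.11) and without replicate 3 of the group with both compounds (-0.82, adjusted p = 0.11). No slide held both of these groups. With slide as a fixed block the change was -1.32 for Nr5a2 (adjusted p = 0.070), -0.58 for Zfp42 (adjusted p = 0.13) and -0.48 for Dppa3 (adjusted p = 0.68), so none of these calls held. When replicate and slide blocks were fitted together, the calls of Zfp42 and Dppa3 held and that of Nr5a2 did not. Tbx3 was not called (0.69 ± 0.29, adjusted p = 0.071), but was without 4OHT replicate 3 (1.12, adjusted p = 0.00017), with quantile normalization (0.81, adjusted p = 0.034), with array weights (0.69, adjusted p = 0.017) and with the mean over its probes (0.91, adjusted p = 0.042). Its other probe passed on its own (1.12 ± 0.38, adjusted p = 0.030, over all probes kept). Without the replicate 3 arrays of all groups Tbx3 differed by 1.02 (adjusted p = 0.0023), and with median centring by 0.45 (adjusted p = 0.26). Esrrb (-0.26 ± 0.13, adjusted p = 0.13), Tfcp2l1 (0.26 ± 0.47, adjusted p = 0.68) and Prdm14 (0.033 ± 0.11, adjusted p = 0.84) were not called either. Esrrb was called without 4OHT replicate 1 (-0.39, adjusted p = 0.027) and with median centring (-0.51, adjusted p = 0.026).

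**Figure D3:**
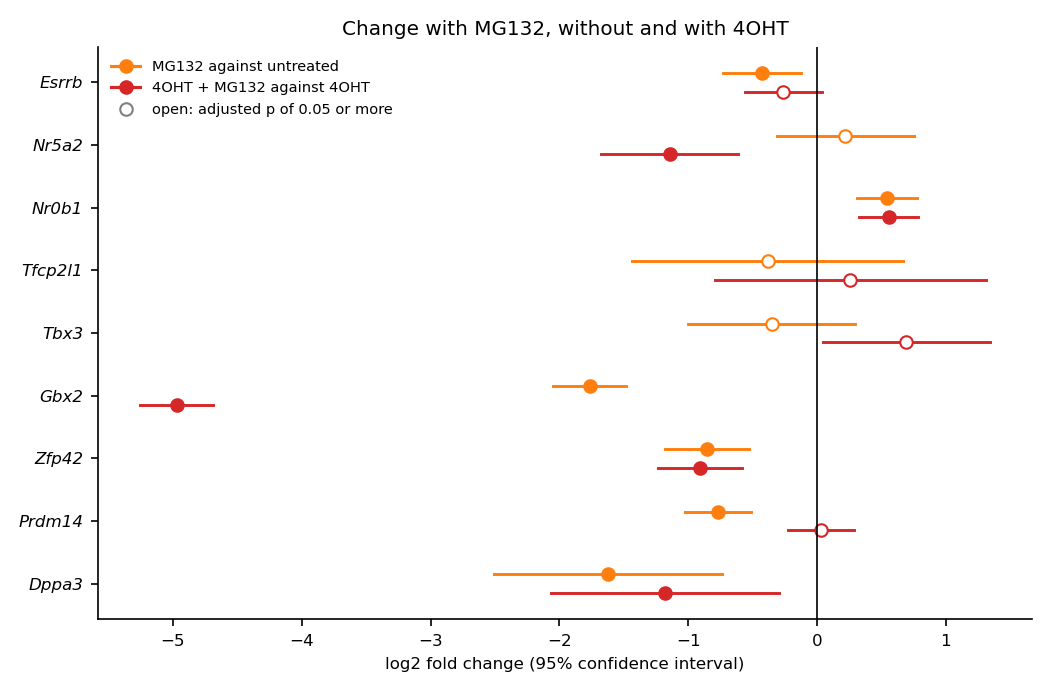
Log2 change with MG132, without 4OHT (MG132 against untreated) and with it (both compounds against 4OHT), for each gene; points are estimates, bars 95% confidence intervals of limma, and open points were not called. Gbx2 lies at -1.77 and -4.97, and Nr0b1 is the gene with called rises in both, 0.54 and 0.56.

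Against untreated cells, all 9 genes were called with both compounds, 1 higher and 8 lower, where 55.6% of all genes were called, 33.2% higher and 22.5% lower. Quantile normalization turned the split over all genes from 8902 higher and 6033 lower to 6697 and 7145, and median centring to 4304 and 10108. The median of the 9 genes was -1.23, beside 0.19 over all genes. None of the 9 overlapped between the groups, as was so for 72.0% of all genes. Nr0b1 rose 2.50-fold (1.32 ± 0.10, adjusted p = 4.5e-06). Gbx2 (-2.40 ± 0.13, adjusted p = 4.8e-07) and Dppa3 (-2.23 ± 0.40, adjusted p = 0.00089) had the largest falls, and Nr5a2 the smallest (-0.68 ± 0.24, adjusted p = 0.034). The others were Tfcp2l1 (-1.68 ± 0.47, adjusted p = 0.012), Esrrb (-1.27 ± 0.13, adjusted p = 3.1e-05), Tbx3 (-1.23 ± 0.29, adjusted p = 0.0048), Prdm14 (-1.02 ± 0.11, adjusted p = 4.4e-05) and Zfp42 (-0.90 ± 0.15, adjusted p = 0.00048).

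The groups of this comparison lay on different slides. With slide as a fixed block the call was lost for Nr5a2 (-0.85, adjusted p = 0.20), Tbx3 (-1.33, adjusted p = 0.11), Zfp42 (-0.57, adjusted p = 0.12) and Dppa3 (-1.53, adjusted p = 0.14). Under replicate and slide blocks together the calls of Zfp42 and Dppa3 held, while those of Nr5a2 and Tbx3 were lost. The Nr5a2 call was also lost without untreated replicate 3 (-0.52, adjusted p = 0.12) and without replicate 1 (-0.65, adjusted p = 0.086) or 2 (-0.60, adjusted p = 0.10) of the group with both compounds.

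The order of the 4 groups differed from gene to gene. Group means spanned 31.4-fold for Gbx2, 4.70-fold for Dppa3, 3.84-fold for Tfcp2l1 and 3.80-fold for Tbx3, but only 1.88-fold for Zfp42. Gbx2 ran from 4OHT through untreated and MG132 to both compounds, and no neighbours in that order overlapped. Esrrb ran from untreated through MG132 and 4OHT to both compounds, and the last neighbours overlapped. Tfcp2l1 and Tbx3 were highest in untreated cells and lowest with 4OHT alone, where both overlapped the arrays with both compounds. Nr0b1 ran the other way from Esrrb, from both compounds through 4OHT and MG132 to untreated, with 4OHT and MG132 overlapping. Prdm14 separated untreated cells from the rest, and Zfp42 separated the groups without MG132 from those with it. Nr5a2 separated the group with both compounds from the other groups, which overlapped. Dppa3 fell from untreated through 4OHT and MG132 to both compounds, and every pair of neighbours overlapped.

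Replicate 3 was the highest array of its group in 4 of 4 groups for Tfcp2l1, Nr5a2, Tbx3 and Esrrb, and the lowest in 4 of 4 for Dppa3 and Zfp42. Averaged over the groups, replicate 3 minus the mean of replicates 1 and 2 was 1.06 for Tfcp2l1, 0.44 for Nr5a2, 0.43 for Tbx3 and 0.18 for Esrrb. It was -0.87 for Dppa3 and -0.27 for Zfp42. The median size of this deviation over all genes was 0.144. The share of all genes with a smaller deviation was 99.0% for Tfcp2l1, 98.1% for Dppa3, 88.6% for Nr5a2 and 87.7% for Tbx3. It was only 74.4% for Zfp42 and 59.5% for Esrrb. How often replicate 3 was the highest or lowest array in 4 of 4 groups was not counted over all genes. Without the replicate 3 arrays of all groups the counts of genes called were 7 with 4OHT, 7 with MG132, 6 with 4OHT under MG132, 7 for both compounds against 4OHT, 9 for both against untreated and 4 for the difference of responses. The shares of all genes called in that fit were 31.4%, 39.5%, 29.0%, 46.8%, 50.8% and 10.5% in the same order. Gbx2 (0.13), Nr0b1 (-0.076) and Prdm14 (-0.011) deviated less than the median over all genes. For Tbx3 most of the deviation came from the 4OHT group (1.27), with 0.040 in untreated cells.

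**Figure D4:**
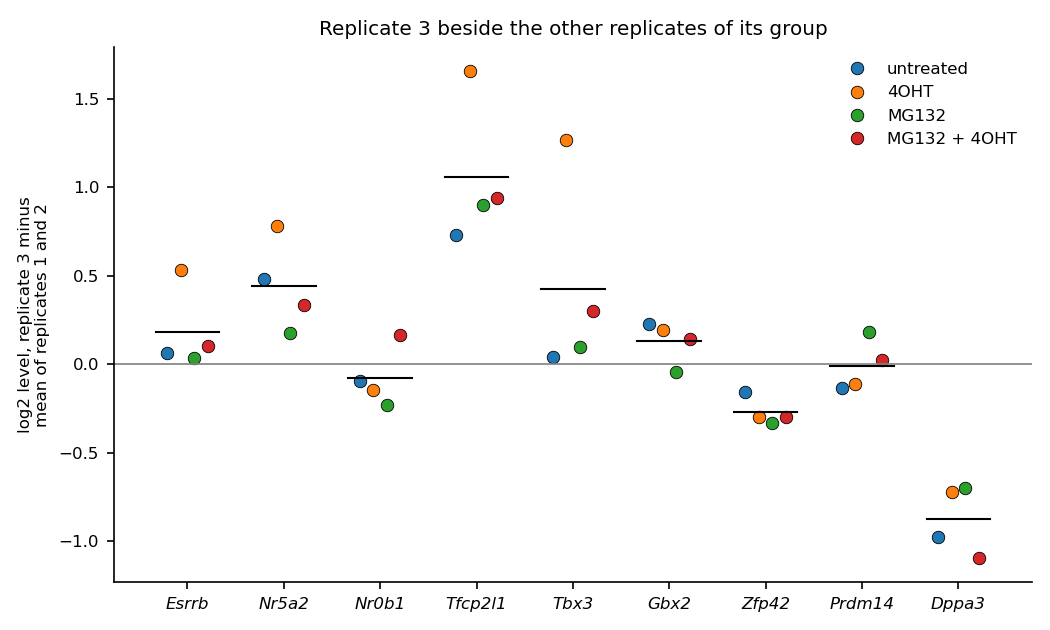
Log2 level of replicate 3 minus the mean of replicates 1 and 2 of the same group, for each gene; each point is a treatment group and each black line the mean of the 4 groups. Tfcp2l1 lies above 0 in all groups, at 0.73 to 1.65, and Dppa3 below 0, at -1.10 to -0.70.

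For each gene the most similar profiles over the 12 arrays were sought among 15919 genes with a symbol, by the root mean square (RMS) distance of log2 values after each gene's own mean was removed. Zfp42 was closest to Zfp987 (RMS 0.0595) and Gdpgp1 (0.0803), and Esrrb to Rab4a (0.103) and Cmtm7 (0.104). Nr0b1 was closest to Ptpn21 (0.141) and Ubxn8 (0.155), Prdm14 to E2f1 (0.146) and Trpm4 (0.148), and Nr5a2 to Arhgap9 (0.166) and Nxn (0.167). Tbx3 had Rab38 (0.170) and Slc2a4 (0.198), Tfcp2l1 Slc51a (0.181) and Hal (0.219), and Dppa3 Hsd17b14 (0.264) and Dpys (0.289). Gbx2 had the most distant neighbours, Aire (0.598) and Pax6 (0.733), but the distance was not scaled by spread. The SD of Gbx2 over the 12 arrays was 2.02, the widest of the 9 genes. Its Pearson correlation with Aire was 0.951, beside 0.943 to 0.993 for the nearest neighbours of the other genes. None of these neighbours was another of the 9 genes.

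Beside these genes, 15 other naive pluripotency genes were examined, Nanog among them. With 4OHT 9 fell and 1 rose, with a median of -1.25. The homeobox factor Nanog had the largest fall (-2.43 ± 0.13, adjusted p = 1.4e-06), and the Krüppel-like factor Klf5 was the gene that rose (0.79 ± 0.17, adjusted p = 0.0053). With MG132 alone 13 fell and none rose, with a median of -0.84, and the Nodal co-receptor gene Tdgf1 had the largest fall (-2.69 ± 0.08, adjusted p = 9.1e-08). With 4OHT under MG132 8 fell and 1 rose, with a median of -0.45, and with slide as a fixed block 4 fell. The difference of responses was called in 3 of the 15, 2 higher and 1 lower, and was 0.98 ± 0.19 for Nanog (adjusted p = 0.013). The background shares and all-gene medians are those given with each comparison above.

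Of 12 general pluripotency genes, 5 rose and 1 fell with 4OHT, and 12 fell with MG132. Among them Pou5f1, the gene of Oct4, differed by 0.017 ± 0.15 with 4OHT (adjusted p = 0.95) and changed by -0.46 ± 0.15 with MG132 (adjusted p = 0.031). Sox2, the partner of Oct4, differed by 0.27 ± 0.10 with 4OHT (adjusted p = 0.060) and changed by -0.99 ± 0.10 with MG132 (adjusted p = 3.1e-05). Of 10 genes of the LIF and STAT3 pathway, feedback genes such as Socs3 among them, 5 rose and 1 fell with 4OHT, while 1 rose and 8 fell with MG132. The 4OHT count became 3 and 3 with median centring or normexp. The AP-1 gene Junb rose by 1.72 ± 0.15 with 4OHT (adjusted p = 2.0e-05), and the feedback inhibitor gene Socs3 changed by -2.18 ± 0.14 with MG132 (adjusted p = 2.8e-06).

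Of 12 regulators, partners and DNA methylation genes tied to the 9 factors, 5 rose and 5 fell with 4OHT, and 5 fell and none rose with MG132. With median centring 10 fell with MG132, and with slide as a fixed block 3. The DNA methyltransferase gene Dnmt3a rose by 1.66 ± 0.10 with 4OHT (adjusted p = 3.9e-06), and its cofactor gene Dnmt3l rose by 0.63 ± 0.09 (adjusted p = 0.00078). With MG132 Dnmt3l changed by -1.77 ± 0.09 (adjusted p = 1.1e-06). Tcf7l1, a repressor of naive genes, changed by -0.80 ± 0.13 with 4OHT (adjusted p = 0.0014) and by -0.99 ± 0.13 with 4OHT under MG132 (adjusted p = 0.00066). The difference of responses was called lower in 4 of these 12 genes, or in 2 with median centring or slide as a fixed block, and was -1.49 for Dnmt3a. Dnmt3l and Tcf7l1 under 4OHT were chosen after their values were seen.

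Of 14 formative and primed epiblast genes, 7 rose and 1 fell with 4OHT, 2 rose and 8 fell with MG132, and 5 rose and 2 fell with 4OHT under MG132. The POU factor Pou3f1 rose by 3.94 ± 0.29 with 4OHT (adjusted p = 8.0e-06). The difference of responses was called lower in 6 of the 14, with a median of -0.68, in 4 with median centring and in 3 with slide as a fixed block. Of 12 ERK response genes 10 rose with 4OHT, with a median of 3.21, and 11 rose with 4OHT under MG132, with a median of 3.20. The immediate-early factor Egr1 rose by 3.09 ± 0.21 with 4OHT (adjusted p = 4.6e-06) and by 8.35 ± 0.21 with 4OHT under MG132 (adjusted p = 6.2e-08). The latter starts from a lower level, since Egr1 changed by -2.96 ± 0.21 with MG132 alone (adjusted p = 5.2e-06). With both compounds Egr1 was higher than with 4OHT alone by 2.30 ± 0.21 (adjusted p = 1.7e-05). In the group with both compounds, where Gbx2 was lowest, 11 of the 12 ERK response genes were thus called higher than with MG132 alone. Compared with 4OHT alone, 2 of the 12 were called higher and 5 lower in that group, with a median of -0.34. A link between these genes and Gbx2 was not tested. Of 9 primordial germ cell genes, a list relevant to Prdm14 and Dppa3, 1 rose and 2 fell with 4OHT, and 3 rose and 2 fell with MG132. With median centring the 4OHT count was 0 and 4, and with normexp 2 and 2.

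Markers of other cell types moved with the groups to different degrees, and their part in the changes above was not tested. Summed linear levels are in units of the array's 75th percentile. For 12 primitive endoderm markers the sums were 131.0 to 188 (untreated), 149.99 to 234 (4OHT), 122 to 180.2 (MG132) and 198 to 230.4 (both), and 1 of the 11 tested rose with 4OHT. For 10 trophoblast markers the sums were 7.95 to 9.07, 17.7 to 44.4, 12.5 to 16.8 and 22.8 to 41.1 in that order. Of the 9 tested, 6 rose and 1 fell with 4OHT, and Elf5 was not well above background in any group. For 10 fibroblast and feeder markers the sums were 26.5 to 44.5, 77.5 to 101, 15.2 to 19.9 and 34.5 to 51.6. Of the 8 tested, 4 rose and 1 fell with 4OHT, and Lum was not well above background in any group. The largest rise was that of S100a4 (4.58 ± 0.23, adjusted p = 9.7e-07), and Pdgfrb fell (-1.57 ± 0.51, adjusted p = 0.041). Postn was not well above background on any untreated or 4OHT array, and Dcn on no 4OHT array. Well above background on all 3 arrays were 8 of the 10 in untreated cells and 5 with 4OHT. For the 8 of 9 markers of the 2-cell-like state on the array the sums were 6.57 to 9.39, 4.55 to 6.84, 6.66 to 10.4 and 4.59 to 9.05, and 1 of the 6 tested fell with 4OHT.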

How the data were processed

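From each sample 100 ng of total RNA was amplified and Cy3-labelled for an Agilent array, per the labels' protocols. The deposited scanner files hold processed intensity, which Feature Extraction 11.0.1.1 had background-subtracted without scaling between arrays, per the file headers. A series-wide matrix that the authors deposited was identical to it (largest difference 0).

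Of 62976 spots 3671 control spots and outlier spots were left out, and spots of a probe were averaged. No spot was saturated. Accessions were matched to RefSeq symbols of GRCm38.p6 (32994 probes, 58.3%). Each array's 75th percentile (309 to 485 intensity units) was subtracted on the log2 scale. The 34332 probes well above background throughout 1 or more groups entered, and the brightest probe stood for a gene.

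Group means over 12 arrays were fitted in limma 3.58.1 under R 4.3.3 (8 residual and 2.08 prior degrees of freedom, 1 pooled spread per gene), with Benjamini-Hochberg adjustment over 26841 genes; 6 contrasts were tested. The code was tested on simulated data. The packages data.table (1.17.8) and jsonlite (2.0.0), Python 3.11.15, matplotlib 3.10.9 and numpy 2.4.6 were also used.

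The 9 genes, the lists and the tests were chosen with earlier results of these data known. Named genes were the 9, Nanog, Klf4, Pou5f1, Sox2 and Egr1, the called genes with the largest rise and fall per list, from which some are given, and the 2 nearest profiles; others are said to be chosen after their values were seen. Alternatives covered quantile normalization, median centring, normexp (offset 50), filters, probe rules, variance models, slide and replicate blocks, a 2-fold minimum, the series-wide table and leaving out each array. Normexp was run on median signals, since the files used here held no mean signal.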

Additional observations from a re-analysis of the deposited data

Results flagged for a closer look

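The response to 4OHT differed between cells with and without MG132 in 3 genes, by a limma test of the difference itself. Untreated cells, taken at 0 h, enter this test, so time and compound cannot be told apart in it. Gbx2 differed by -3.21 (SE 0.18, adjusted p = 3.8e-05). All 3 4OHT arrays lay above all untreated arrays, while all 3 arrays with both compounds lay below all MG132 arrays. Nr5a2 differed by -1.36 (SE 0.34, adjusted p = 0.041), a value whose adjusted p ranged up to 0.11 when single arrays were left out and was 0.12 with slide as a fixed block. Prdm14 differed by 0.80 (SE 0.16, adjusted p = 0.017), with an adjusted p of 0.11 with slide as a fixed block and 0.055 without the replicate 3 arrays of all groups.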

How the results depend on the processing

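No called change of the 9 genes reversed in any alternative that was run. Apart from leaving out arrays singly, 936 values were recomputed, of which 58 lost a call and 28 gained one. Leaving out each array in turn gave 648 values, of which 38 lost a call and 9 gained one. The count of genes called ranged from 6 to 7 (4OHT), 5 to 7 (MG132), 3 to 6 (4OHT under MG132), 4 to 6 (MG132 under 4OHT), 8 to 9 (both against untreated) and 1 to 4 (difference of responses). In the same order, the shares of all genes called ranged from 21.1% to 32.1%, 34.9% to 48.5%, 16.9% to 32.7%, 42.5% to 53.6%, 47.2% to 61.2% and 3.75% to 9.46%. With slide as a fixed block 2 genes were called for 4OHT under MG132, 2 for MG132 under 4OHT, 5 for both against untreated and 1 for the difference, while the shares of all genes called fell too, from 26.5%, 50.2%, 55.6% and 6.56% to 11.1%, 19.9%, 26.2% and 3.00%. Slide 2 held only 1 MG132 array, so no count within it is given for 4OHT under MG132. No slide held the arrays for the last 3 comparisons. A 2-fold minimum left 2 genes for MG132, 0 for 4OHT under MG132 (5 without that minimum) and 3 for MG132 under 4OHT. Of all 26841 genes tested, that minimum left 4284, 1945 and 5402 in the same order. With a replicate block the counts were 7, 6, 7, 6, 9 and 3 in the order of the 6 ranges above, and Dppa3 with 4OHT (adjusted p = 0.0012) and Tbx3 in MG132 under 4OHT (0.049) were among the calls gained. The shares of all genes called with that block were 32.9%, 47.2%, 32.2%, 54.0%, 58.8% and 9.56%. Deviations of same-numbered arrays correlated at -0.062 to 0.155, 0.072 to 0.154 and 0.115 to 0.406 for numbers 1, 2 and 3, so the numbers were not taken as pairs; 4 of 12 arrays, those of number 3, correlated best with an array of their own number. With replicate and slide blocks together the counts were 7, 5, 1, 4, 7 and 1 in the order of the 6 ranges above. The shares of all genes called with both blocks were 31.7%, 40.4%, 8.61%, 18.0%, 22.6% and 3.00%. Causes of these shifts were not tested beyond the smaller number of arrays or stricter threshold that the alternative itself sets.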
